A study of Mus musculus with 15 samples.

Results

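On the Affymetrix mouse gene array used here, 12147 of 35557 probe sets carried no gene symbol in the platform annotation. A probe set is a group of short DNA probes whose signals are summarised into 1 value. Membership was defined by the annotation and by the probe set ID, which gives 2 groups. The control block, with IDs from 10338001 to 10344613, held 6613 probe sets, and the other unnamed probe sets, with IDs of 10344614 or higher, numbered 5534. They were compared with the 21789 probe sets that carry exactly 1 symbol; the 1621 with several symbols were kept out of that comparison. The annotation can be old, so a probe set without a symbol is unnamed here and may still lie in a gene. These probe sets were selected on an earlier result of the same arrays, that 10 of the 12 probe sets past the adjusted threshold had no symbol. Their differences between genotypes are therefore given as a description, and no count of them is read as support.

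The arrays measured total RNA of gonadal white adipose tissue from male C57BL6/J mice, 7 wild type and 8 Sfrp5 KO (Q27Stop), a premature stop codon in Sfrp5. Every mouse, wild type included, ate a high-fat diet for 8 weeks, from 4 to 12 weeks of age, and gave 1 array. The labels restrict the allele to no tissue or cell type. In a whole fat pad, fewer cells of a type and less RNA per cell cannot be told apart.

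Sfrp5 encodes secreted frizzled-related protein 5, which binds Wnt ligands outside the cell and is made by adipocytes. Gonadal fat of male mice lies along the epididymis, beside the testis, and is covered by mesothelium. Whole-transcript arrays carry probe sets for introns and exons of widely expressed genes as controls. Introns are spliced out of a transcript and quickly degraded, so intron probes usually read near background, while exon probes read mature RNA. Other probe sets without a symbol often cover predicted transcripts, repeats, small RNAs, pseudogenes or mitochondrial sequence. Which of the control probe sets are intronic and which exonic was not separated here, and probe sequences and positions were not analysed here.

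All values are deposited log2 values, and each difference is knockout minus wild type. Medians of the 15 arrays ran from 6.99 to 7.07. The adipocyte list (Adipoq, Plin1, Fabp4 and 6 further genes, 9 of 10 measured) averaged between 11.5 and 11.84 in every array. The targeted gene, Sfrp5, was lower in the knockout, at 6.69 ± 0.40 (SD, n = 8) against 7.92 ± 0.24 (SD, n = 7), a difference of -1.23 (SE 0.16; limma's Benjamini-Hochberg adjusted p = 0.0200; two-sided exact permutation p = 0.000155, the smallest the design allows). The arrays stand at positions 1 to 7 (wild type) and 8 to 15 (knockout) in the submitters' descriptions, so that genotype and this order cannot be told apart. Each array also carries a number whose meaning is not stated, lower in knockout replicates 1 to 6 than in any wild-type array, and within the wild-type range in knockout replicates 7 and 8.

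Both unnamed groups read lower than named probe sets, and the control block was far more variable between arrays of 1 genotype. Since signal also depends on the probes, these are distributions of signal and not of RNA abundance. The median level over all arrays was 6.74 in the control block, 6.34 in the other unnamed probe sets and 7.24 in probe sets with 1 symbol. The control block was also the widest: its 5th to 95th percentiles ran from 3.32 to 11.04, against 4.44 to 10.8 in named probe sets and 3.24 to 9.94 in the other unnamed probe sets. Its brightest probe set reached 14.1, higher than the brightest named one at 13.4. The median SD between arrays of 1 genotype was 0.379 in the control block, 0.176 in the other unnamed probe sets and 0.163 in the named ones. As each mouse gave 1 array, differences between mice and measurement noise cannot be told apart in this SD.

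At equal level the difference in spread remained in the control block and shrank in the other group. Probe sets were placed in bins of mean level 0.5 wide, and named probe sets were weighted to the levels of each unnamed group, over the 21 bins that held at least 20 named probe sets. The control block then had a median SD of 0.392 against 0.164 in named probe sets, 2.38 times as large, and lay above them in 21 of 21 bins. The other unnamed probe sets had 0.175 against 0.170, and lay above in 19 of 21 bins. Within the control block the SD was highest between 4 and 4.5, at 0.559, and was 0.131 between 11.5 and 12. These are descriptions over probe sets, which share arrays and are not replicates.

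**Figure D1:**
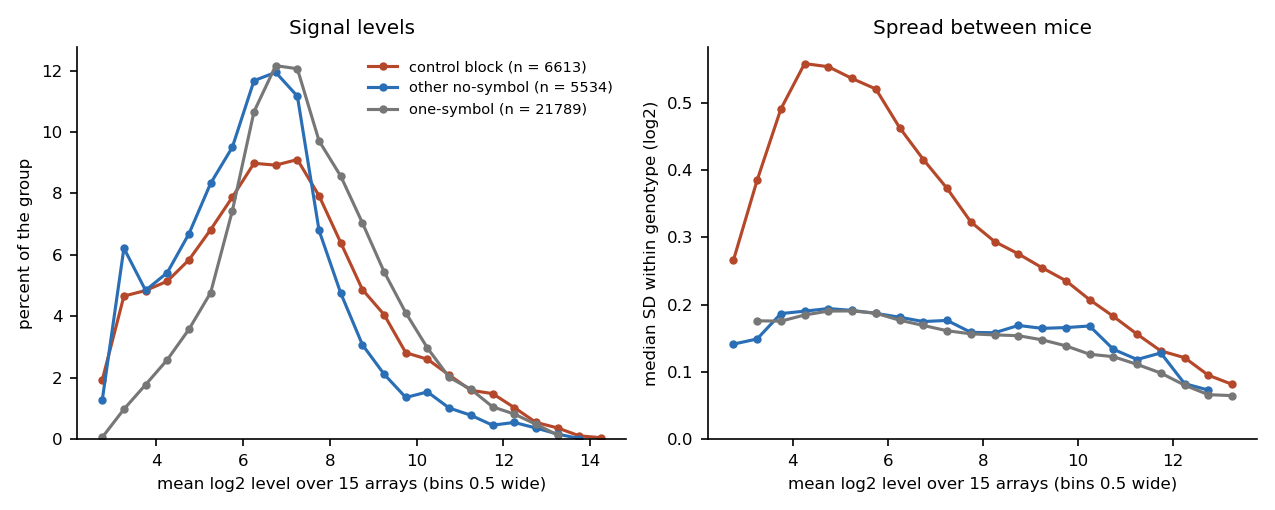
Distribution of mean log2 level (left, probe sets per bin as a percentage of the group) and median within-genotype SD by level (right) in the control block, the other unnamed probe sets and probe sets with 1 symbol. The control block lies above the named probe sets in SD in each of the 21 bins compared. With 1 array per mouse, the SD holds both differences between mice and measurement noise.

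Members of the control block moved little together, despite their spread. The mean Pearson correlation over all pairs of members, on 15 arrays centred on the genotype mean, was 0.0152 in the control block, 0.0270 in the other unnamed probe sets and 0.0112 in named ones. Within bins of equal level, where pairs of like brightness are compared, the mean was 0.0177 in the control block against 0.0759 in named probe sets, below them in 21 of 21 bins. It was 0.0550 against 0.0716 for the other unnamed probe sets, below in 15 of 21 bins. The first principal component held 13.5% of the variance of the standardised values in the control block, 17.6% in the other group and 20.9% in named probe sets. Probe sets next to each other in ID order, at most 10 IDs apart, correlated at a mean of 0.0179 in the control block, 0.132 in the other unnamed group and 0.0989 among named probe sets, with pairs of identical values left out.

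The 5 most variable members of the control block did not share a pattern over the arrays. Probe set 10342344, with the largest within-genotype SD at 1.41, read 2.72, 3.0 and 4.59 in replicates 4, 7 and 3 of the wild type, and between 5.78 and 7.46 in the other arrays. Probe set 10341932 (SD 1.36) read 2.48 and 3.33 in replicates 2 and 6 of the wild type and 3.20 in knockout replicate 8, while knockout replicate 6 reached 7.46. Probe set 10338355 (SD 1.24) read 2.30 in wild-type replicate 2 and 6.99 in wild-type replicate 5. Probe set 10340089 (SD 1.32) read 2.56 to 3.88 in 5 knockout arrays and 6.09 to 6.59 in the other 3, with wild type between 3.86 and 5.71. Probe set 10339282 (SD 1.25) read 2.52 to 3.71 in 7 arrays of both genotypes and 4.79 to 5.92 in the remaining 8. Of the 6613 control probe sets, 44 had an SD over 1, and none of the 44 followed the testis or epididymis lists described next at r over 0.9.

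Among the other unnamed probe sets, the 5 most variable ones marked arrays that also carried transcripts of the testis or epididymis. Probe set 10450930 (SD 2.18) reached 12.16 in replicate 4 of the wild type and 9.29 in replicate 2 of the knockout, and lay between 4.52 and 6.29 in the remaining 13 arrays. In ID order it lies between Crisp3 and Crisp2 on chromosome 17, genes of cysteine-rich secretory proteins. The named genes most like it were Dapl1 (r = 0.98), Rnase12 (0.98) and Wfdc10 (0.97). The fixed epididymis list, with 11 of 13 genes measured (Gpx5, Lcn8, Adam7 and others), also had a high mean there. It was 7.45 in that wild-type array (remaining wild-type arrays 5.65 to 6.06) and 9.42 in that knockout array (remaining knockout arrays 5.62 to 6.5). Its genes did not vary alike in wild type, where the SD ran from 0.17 in Gpx5 to 2.34 in Adam7 (n = 7).

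Probe set 10476915 (SD 1.79) read 12.73 in knockout replicate 2 and 8.12 in knockout replicate 3, and between 5.72 and 7.24 elsewhere. It lies between Cst12 and Cst13, 2 cystatin genes on chromosome 2, in ID order, and Cst12 was the named gene most like it (r = 0.98), followed by Sycp1 (0.96), which encodes a protein of the meiotic synaptonemal complex, and Hsd17b3 (0.95), which encodes the testis enzyme that makes testosterone. Probe sets 10603986 and 10604023 held identical values in all arrays (SD 1.70), with 10.33 and 9.65 in knockout replicates 2 and 3, and 8.36, 7.57 and 7.44 in replicates 4, 6 and 2 of the wild type. Knockout replicate 4 read 6.14 and the other arrays read 5.38 to 5.97. Their most like genes, all at r = 0.98, were Ldhc and Pgk2, the sperm forms of lactate dehydrogenase and phosphoglycerate kinase, and Spz1, a transcription factor of the testis.

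A list of 10 testis germ cell genes (Prm1, Prm2, Tnp1, Tnp2, Ldhc, Pgk2, Akap4, Odf1, Smcp and Acrv1), added after these values were seen, was high in the same arrays. Its mean was 9.40 and 9.35 in knockout replicates 2 and 3, and 8.5, 8.11 and 7.93 in replicates 4, 2 and 6 of the wild type. It was 7.12 in knockout replicate 4 and between 6.19 and 6.58 in the remaining 9 arrays. At r over 0.9 with this list mean there were 22 of the other unnamed probe sets (0.398% of the group), 68 named ones (0.312%), of which 9 were genes of the list itself, and 0 of the control block. The list was added after these profiles were seen and holds Ldhc and Pgk2, so these counts are a description and not a separate observation. The epididymis list was followed at that r by 2 of the other unnamed probe sets, 26 named ones (4 of them genes of the list) and 0 of the control block. Of the 19 other unnamed probe sets with an SD over 1, 7 followed the testis list and 1 the epididymis list at that r. Of the 194 such named ones, 21 and 11 did. None of the 22 and the 2 passed an unadjusted p of 0.05 between genotypes, and the high arrays come from both genotypes.

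**Figure D2:**
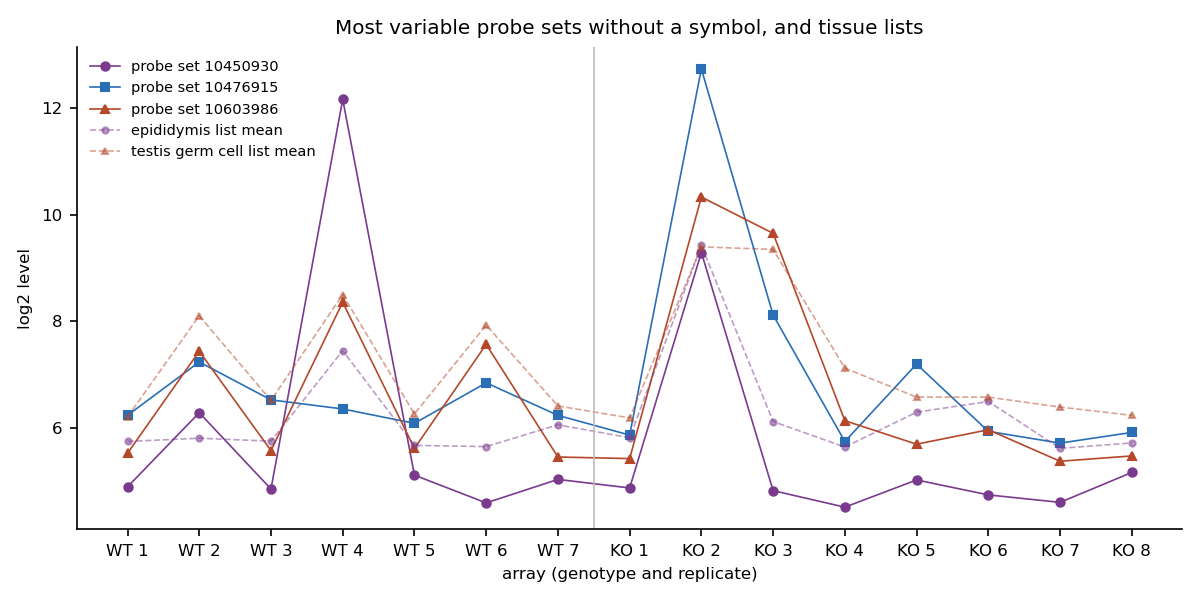
Log2 level in each of the 15 arrays for the most variable members, with the array's mean of the testis germ cell and epididymis lists. Knockout replicate 2 and wild-type replicate 4 stand high in probe set 10450930, and knockout replicates 2 and 3 in probe set 10476915.

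Many of the other unnamed probe sets repeat each other. Of the 5534, 313 (5.66%) shared their values in all 15 arrays with at least 1 other member, in 79 sets, which leaves 5300 distinct profiles. No control probe set did so, and 129 of the named ones (0.592%) did. The largest set had 50 probe sets, from 10345436 to 10607429, flanked in ID order by named genes of 19 chromosomes; its wild-type level was 7.20 ± 0.34 (SD, n = 7) and its knockout level 7.39 ± 0.25 (SD, n = 8). The next had 33 probe sets, from 10563937 to 10564155, at 3.24 ± 0.08 (SD, n = 7) and 3.07 ± 0.17 (SD, n = 8). A set of 13 on chromosome X by its flanks read 5.02 ± 0.57 (SD, n = 7) and 4.75 ± 0.91 (SD, n = 8). The adjusted p of these 3 sets was 0.735, 0.449 and 0.872 by limma.

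ID order followed the genome: of 20391 named probe sets whose named neighbours lie on 1 chromosome, 97.4% lay on that chromosome too. By this measure 4778 of the 5534 other unnamed probe sets could be placed on a chromosome, with the symbols and chromosomes taken from RefSeq (GRCm38.p6).

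Between the genotypes, 10 unnamed probe sets passed an adjusted p of 0.05 in limma, 2 in the control block and 8 in the other group. The background was 12 of all 35557 probe sets, 0.0337%, and the other 2 were named. Of the 10, 9 were higher and 1 was lower in the knockout. Wild-type and knockout ranges did not overlap in 9 of the 10. Over all probe sets, ranges did not overlap in 0.217%. A choice by low p favours such ranges, so the 9 are no separate observation. Each is given below with its lowest, median and highest array per genotype.

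In the control block, 10339325 read 10.26, 10.40 and 10.67 in wild type and 10.71, 10.93 and 11.19 in the knockout. Every knockout array was above every wild-type array, with a difference of 0.52 (SE 0.08, adjusted p = 0.0390). Probe set 10338532 was the one that fell, with 7.79, 8.07 and 8.21 in wild type and 7.32, 7.52 and 7.74 in the knockout. Its difference was -0.48 (SE 0.08, adjusted p = 0.0446), again with no overlap. The named genes most like the first were Hacd2 (r = 0.89), an enzyme of very-long-chain fatty acid synthesis, Rn7sk (0.88), the 7SK RNA that restrains transcription elongation, and Dbi (0.87), an acyl-CoA binding protein. Those most like the second were Chrna3, Vmn1r67 and Olfr395 (0.86, 0.85 and 0.85), genes of a nicotinic receptor subunit, a vomeronasal receptor and an odorant receptor.

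Among the others, 10361640 read 8.57, 8.73 and 8.83 in wild type and 8.99, 9.31 and 9.47 in the knockout, a difference of 0.54 (SE 0.07, adjusted p = 0.0200). It lies between Zbtb2 and Lrp11 on chromosome 10 in ID order. The genes most like it were B2m (r = 0.89), the light chain of MHC class I, Nxn (0.80), a redox protein, and Snrpg (0.78), a spliceosomal protein. Probe set 10364091 had the same adjusted p and a larger difference of 0.72 (SE 0.10), with 6.75, 7.07 and 7.32 in wild type and 7.50, 7.84 and 7.91 in the knockout. Its ID lies between Ggt5 and Derl3 on chromosome 10, and the genes most like it were Nelfa (0.81), a subunit of the negative elongation factor, Rps15 (0.79), a ribosomal protein, and Pcdhb21 (0.78), a protocadherin. Neither probe set had any overlap between genotypes.

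The largest difference was that of 10597511, at 0.85 (SE 0.14, adjusted p = 0.0446), and it was the only one of the 10 whose ranges met. It read 8.58, 9.11 and 9.57 in wild type and 9.44, 10.00 and 10.19 in the knockout, with wild-type replicate 6 above knockout replicate 1. Its named neighbours lie on chromosomes 9 (Stt3b) and 16 (Rpl24), so it was not placed. Mrpl23 (r = 0.86), Ube2n (0.85) and Rpl8 (0.84) were the genes most like it; Mrpl23 and Rpl8 are ribosomal proteins, of the mitochondrial and the cytosolic ribosome.

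The remaining 5 rose by 0.41 to 0.47, each with no overlap. Probe set 10425981 was the dimmest, with 5.84, 5.94 and 6.04 in wild type and 6.19, 6.37 and 6.72 in the knockout (0.47, SE 0.07, adjusted p = 0.0390), and lies between Atxn10 and Ppara on chromosome 15. Probe set 10572722 read 7.60, 7.74 and 7.90 against 7.91, 8.22 and 8.40 (0.46, SE 0.07), between Colgalt1 and Zfp709 on chromosome 8. Probe set 10567211 read 9.02, 9.23 and 9.34 against 9.39, 9.69 and 9.87 (0.45, SE 0.07), between Pik3c2a and Rps15a on chromosome 7. Their adjusted p was 0.0390 as well.

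Probe set 10482073 read 7.62, 7.76 and 7.89 in wild type and 8.04, 8.21 and 8.33 in the knockout (0.44, SE 0.06, adjusted p = 0.0244), between 4930402F06Rik and Ttll11 on chromosome 2. Probe set 10433937 read 9.07, 9.19 and 9.27 against 9.29, 9.62 and 9.73 (0.41, SE 0.06, adjusted p = 0.0390), between Ppm1f and Ypel1 on chromosome 16. The named probe sets most like these 5 over the 15 arrays differed from member to member. For 10425981 they were those of Tet1 (r = 0.85), an enzyme that oxidises methylated cytosine, Heatr9 (0.82) and AY702103 (0.80). For 10572722 they were those of Ubr7 (0.87), a ubiquitin ligase, Hyal5 (0.85), a hyaluronidase of sperm, and Cryba1 (0.83), a lens crystallin. For 10567211 they were those of Rbm25 (0.85), a splicing regulator, Gm10044 (0.80) and Armcx4 (0.79). For 10482073 they were those of Gdpd3 (0.84), a phospholipase, Rps14 (0.83), a ribosomal protein, and Padi2 (0.83), a peptidylarginine deiminase. For 10433937 they were a pair of probe sets of Rpl23a (0.88 and 0.86) and that of Rpl36a (0.84), both ribosomal proteins. Being the highest of all named probe sets, these correlations are a description.

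The 10 did not move as one across mice. Over their 45 pairs the mean correlation, with the genotype means removed, was 0.22, from -0.70 to 0.67, and over the 36 pairs of the 9 that rose it was 0.37. Knockout replicate 1 was the lowest knockout array in 7 of those 9, and wild-type replicate 6 the highest wild-type array in 5 of them. Without knockout replicate 1, the calls were 42 of 6613 in the control block, 62 of 5534 in the other group and 19 of 21789 named probe sets. In that order they were 2, 8 and 2 in the main fit, and 9, 19 and 4 without wild-type replicate 6. The calls thus rose among named probe sets too. Without wild-type replicate 1 they were 4, 3 and 1, and without any 1 of the other 12 arrays they were at most 1, 4 and 1. The control block had 0 in 10 refits, and the other group and the named probe sets had 0 in 7 each. At an unadjusted p under 0.05 in limma, the 2 unnamed groups kept 767 or more and 717 or more. The named share in those refits is not given here, so no excess is read from these 2 counts. Without each array in turn, every one of the 10 kept its direction in all 15 refits. Leaving out 1 array could not turn the direction of the 9 without overlap, so this is no check on them. They passed in 2 (10339325, 10433937, 10572722 and 10597511) to 8 (10361640) of the refits, at a limma adjusted p of at most 0.123.

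**Figure D3:**
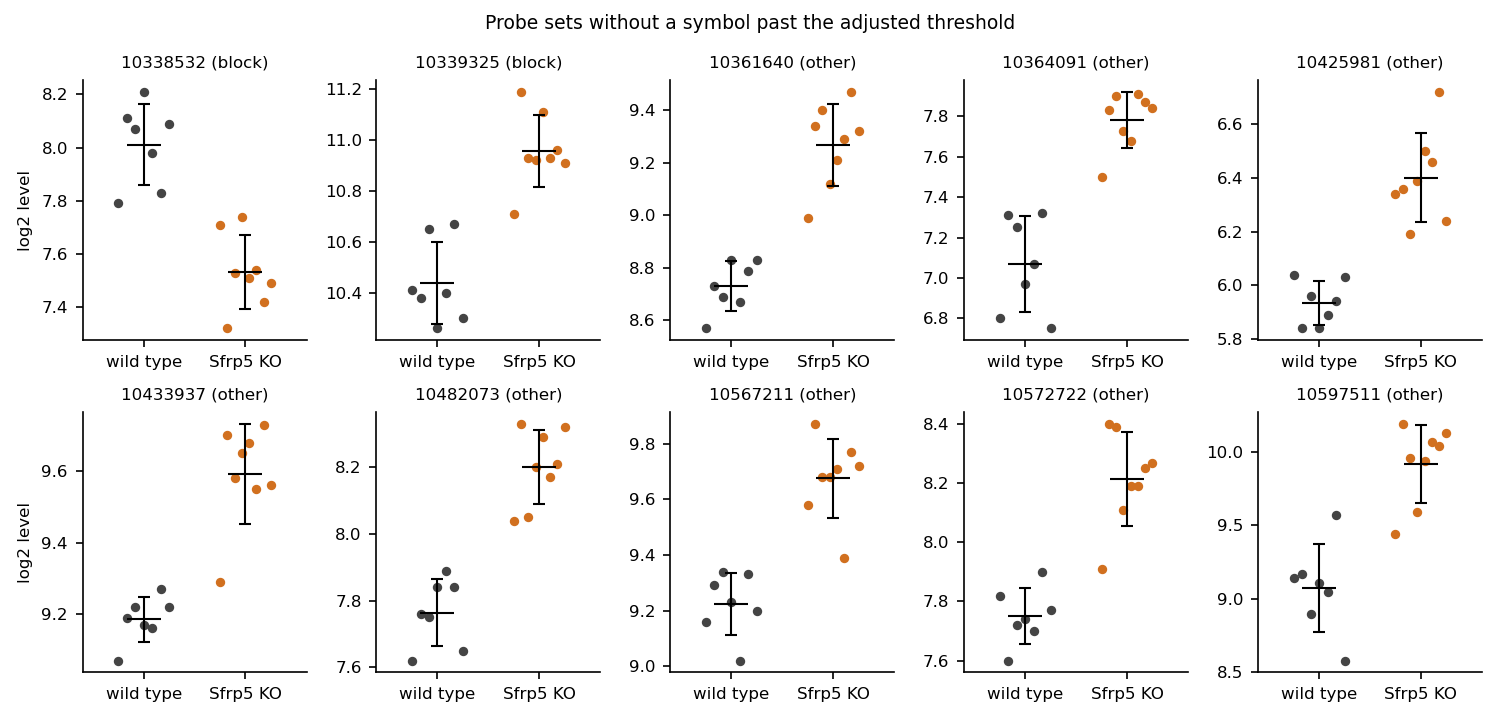
Log2 level per array in wild-type (n = 7) and knockout (n = 8) mice for the 10 unnamed probe sets past the adjusted threshold, with the mean and SD of each genotype. Only probe set 10597511 has overlapping ranges.

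Just outside the threshold lay 10375483 (difference 0.58, adjusted p = 0.0515), 10428441 (0.43, 0.0532) and 10480345 (0.50, 0.0532). In the control block the next to pass would have been 10338616 (0.61) and 10342110 (-0.53), both at an adjusted p of 0.0693. No other unnamed probe set outside the block passed on the lower side; the lowest p there was that of 10545245, at -0.71 (adjusted p = 0.0867), which lies between Igkv6-20, an immunoglobulin light chain gene, and Rpia, a pentose phosphate enzyme, on chromosome 6.

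At the edge of the block, probe set 10344613, its last member, read 7.97 ± 0.13 (SD, n = 7) and 7.74 ± 0.22 (SD, n = 8), a difference of -0.23 with limma's adjusted p = 0.418. Probe set 10344614, the first above it, read 7.34 ± 0.12 (SD, n = 7) and 7.22 ± 0.08 (SD, n = 8), a difference of -0.12 with limma's adjusted p = 0.497.

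At an unadjusted p of 0.05, 873 control probe sets (13.2%) and 825 of the others (14.9%) passed in limma, against 1573 named ones (7.22%) and a background of 9.97% over all probe sets. In the control block 446 were higher and 427 lower, and in the other group 455 were higher and 370 lower. Over all probe sets 4.94% were higher and 5.03% were lower at that p. With members of identical value counted once, 779 of 5300 (14.7%) of the other group passed. Weighted to equal level, the share was 13.2% in the control block against 8.69% in named probe sets, above them in 14 of 21 bins. For the other group it was 14.9% against 8.34%, above in 18 of 21 bins, with all identical members counted. The control count depends on the variance model. With a variance prior within each group, chosen after seeing the data, 683 of 6613 control probe sets and 828 of 5534 others passed. The named share and the background under that prior are not given here. No excess of the control block is therefore read from its count under that prior. Probe sets are not independent, so these shares have no test.

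The gap differed along the range. Between 3 and 3.5 the share was 24.1% of 344 others, 17.0% of 212 named probe sets and 10.7% of 308 in the control block. In this bin, 33 of the 83 others that passed were 1 repeated profile (mean level 3.15, limma unadjusted p = 0.0329). A further 23 of the 344 repeated a profile that did not pass (mean level 3.08). The share with identical members counted once is not given by bin, so no excess over named probe sets is read from this bin. Between 3.5 and 4 it was 9.38% in the control block and 13.4% in the other group, both under the 15.8% of named probe sets. Between 6.5 and 7 the share was 11.4% in the control block, 11.6% in the other group and 4.45% in named probe sets. Between 8.5 and 9 it was 18.6%, 25.3% and 5.41%, and between 9.5 and 10 it was 23.7%, 32.0% and 6.36%. Between 12.5 and 13 the order was turned, with 16.7% of 36 control probe sets, 25% of 20 others and 36.2% of 105 named ones. Between 13 and 13.5 it was 29.2% of 24, 77.8% of 9 and 44.8% of 29.

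**Figure D4:**
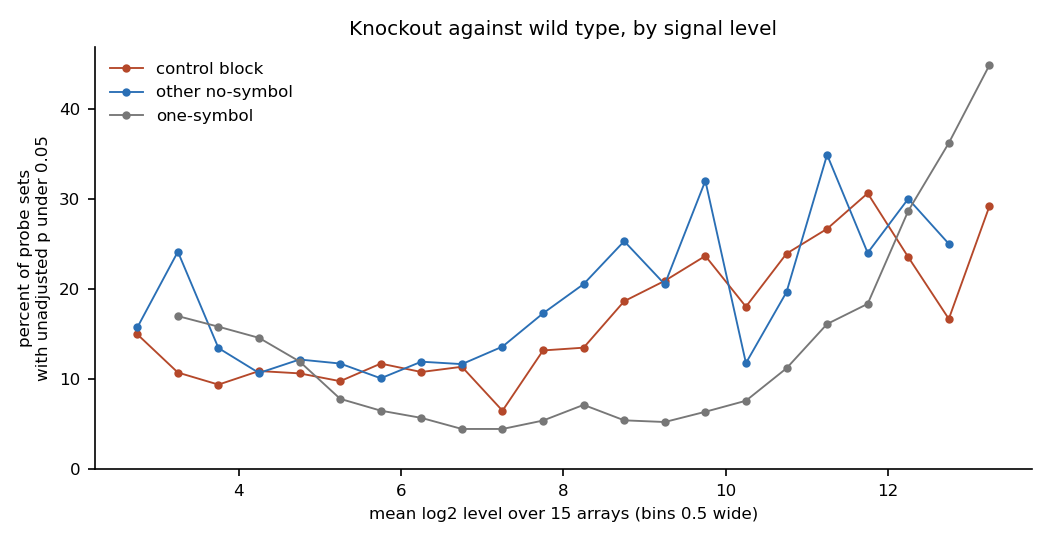
Share of probe sets with an unadjusted limma p under 0.05 by mean log2 level, in the control block, the other unnamed probe sets and probe sets with 1 symbol. From 8.5 to 10 both unnamed groups lie above the named probe sets; from 12.5 to 13 the named probe sets are highest.

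The sign of the difference also moved with level in all 3 groups. In the other unnamed group 16.6% were higher in the knockout between 3 and 3.5 (median difference -0.098) and 81.4% between 11 and 11.5 (median 0.088). In named probe sets these shares were 19.8% and 64.4%, and in the control block 33.8% and 53.3%. All identical members are counted here. Of the 344 others between 3 and 3.5, 33 repeat 1 profile (difference -0.17) and 23 repeat another (-0.05). The 16.6% is therefore not read as lower than the 19.8% of named probe sets. Medians over whole groups were close to 0: -0.000918 in the control block, -0.00748 in the other group and -0.00981 in named probe sets, against -0.00753 over all probe sets. The spread of differences was wider in the control block, with 5th and 95th percentiles at -0.41 and 0.46, against -0.21 and 0.27 in the other group and -0.18 and 0.18 in named probe sets.

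The mean level of an array differed little between the genotypes. Over the control block the wild-type mean was 6.83 ± 0.064 (SD, n = 7) and the knockout mean 6.84 ± 0.058 (SD, n = 8), from 6.73 (wild-type replicate 4) to 6.92 (knockout replicate 3). The other unnamed probe sets averaged 6.35 ± 0.021 (SD, n = 7) and 6.36 ± 0.024 (SD, n = 8). Knockout replicate 3 held the highest value of the 15 arrays in 9.28% of the control probe sets but in 3.87% of the others. Wild-type replicate 3 did so in 10.2% of the others.

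In probe sets at an unadjusted p under 0.05, knockout replicate 1 and wild-type replicate 6 lay toward the opposite genotype. Those probe sets were chosen by p in the limma fit that held every array scored here, so the shares are a description. Of the control probe sets at an unadjusted p under 0.05, 46.8% read nearer the wild-type mean in knockout replicate 1, and of the others 52.8%. In replicate 6 of the wild type, 42.3% and 33.5% read nearer the knockout mean. In knockout replicate 2 the shares were 15.5% and 9.58%, the lowest of the arrays. Named probe sets did likewise, at 44.0% and 36.9% in the same arrays, knockout replicate 1 first.

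**Figure D5:**
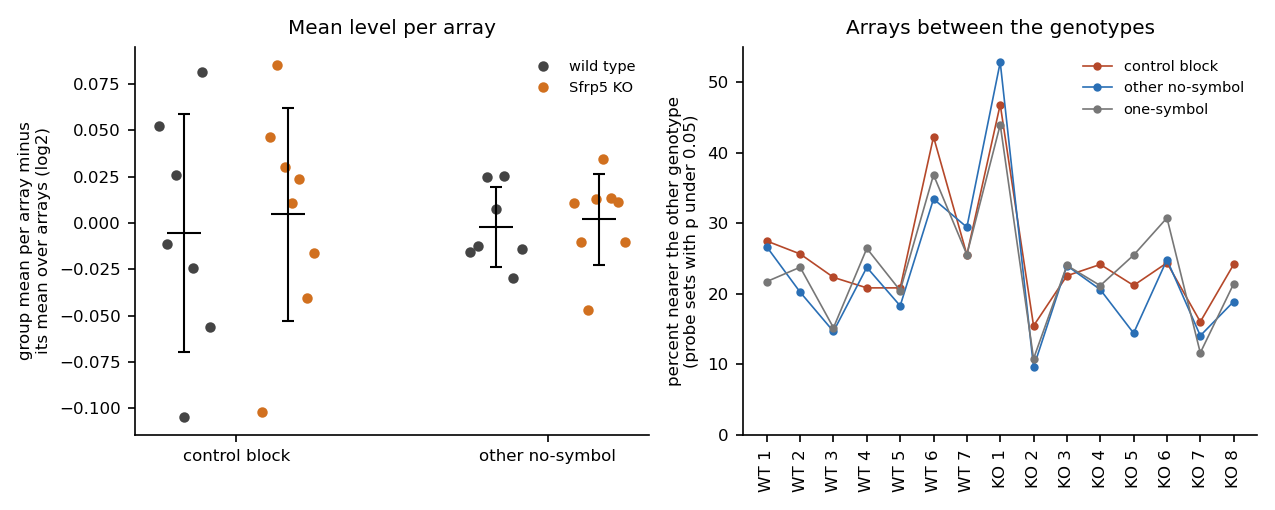
Left, the mean log2 level of each array over the control block and over the other unnamed probe sets, minus that group's mean over arrays, with the mean and SD of each genotype (n = 7 and 8). Right, the percentage of probe sets at an unadjusted p under 0.05 that read nearer the mean of the other genotype in each array; the genotypes overlap on the left, and knockout replicate 1 and wild-type replicate 6 stand highest on the right.

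The mesothelium list (Upk3b, Upk1b, Msln and others) was higher in the knockout in 10 of 10 genes, 4 at an unadjusted p under 0.05 and 0 after adjustment by limma, with its mean between 7.20 and 8.42 in wild type and between 7.74 and 8.53 in the knockout. Its part in the differences of the unnamed probe sets was not tested. No unnamed probe set correlated with that list mean at r over 0.9, and only 6 named ones did (0.0275%), 1 of them a gene of the list. At so low a share, the absence of unnamed ones is a description. The macrophage list was followed at that r by 9 control probe sets (0.136%), 12 of the others (0.217%) and 149 named ones (0.684%).

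The brightest members varied little in the control block, where 10340366 read 14.08 ± 0.06 (SD, n = 7) and 14.16 ± 0.06 (SD, n = 8). In the other group the brightest was 10608690, at 13.44, 13.61 and 13.68 in wild type and 13.62, 13.68 and 13.72 in the knockout. The third brightest, 10598020, lies between Ccr1l1 and mitochondrial COX2 in ID order, so its neighbours are on different chromosomes. By chromosome of the flanking genes, the share of the other unnamed probe sets at an unadjusted p under 0.05 ran from 8.08% on chromosome 14 to 19.3% on chromosome 16 among the autosomes. On chromosome 19, which carries Sfrp5, 25 of 155 (16.1%) passed, close to the 14.9% of the whole group, and 0 passed after adjustment by limma. Of the named probe sets there 10.5% passed, against 7.22% of all named ones.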

How the data were processed

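The authors deposited log2 values per probe set. The submitters' processing notes give RMA as the method, and list Affymetrix Expression Console 1.1.2800.19935, affy 1.18 and limma beside it. RMA makes the arrays' distributions alike, so a shift common to most probe sets is removed before deposit. Scanner files were not used here, so detection over background could not be judged, and the number of arrays limits the precision. Per the labels' protocols, total RNA was amplified and biotin-labelled with a whole-transcript kit.

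The genotypes were fitted in R 4.3.3 with limma 3.58.1 (lmFit, eBayes, two-sided, no covariate, no filter) over all 35557 probe sets, with Benjamini-Hochberg adjustment at 0.05. Of 21789 named probe sets, 21698 matched RefSeq (GRCm38.p6). The labels call the arrays biological replicates. The members and lists were chosen with earlier results of these data known. Named are the members past the threshold, the lowest p, the brightest and the most variable of each group, the members at the block's edge, and the 3 genes most like those past the threshold; for the most variable, those genes are given for 3 profiles outside the control block. Alternatives were another normalization, left-out arrays, a filter at the 33rd percentile of level, the replicate number as a block, and other variance models, covariates and thresholds. The fit was tested on simulated data. Figures used Python 3.11.15 and matplotlib 3.10.9.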

Additional observations from a re-analysis of the deposited data

Results flagged for a closer look

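Of 102 groups of arrays examined, 12 held a single array far from the others, judged by its gap to the nearest one over the range of the group. Chance gives about 1 in 20 for groups that are independent and not chosen by their values. Members chosen by SD or p are among those examined, and all share the same arrays. The count of 12 is therefore not read against that rate.

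Probe set 10450930, between Crisp3 and Crisp2, read 12.16 in wild-type replicate 4, with the remaining wild-type arrays at 4.60 to 6.29, and 9.29 in knockout replicate 2 against 4.52 to 5.17. The mean of the epididymis list stood apart in the same arrays, at 7.45 in wild-type replicate 4 (others 5.65 to 6.06) and 9.42 in knockout replicate 2 (others 5.62 to 6.5). Probe set 10476915 read 12.73 in knockout replicate 2, against 5.72 to 8.12.

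Knockout replicate 1 was low in probe set 10433937, at 9.29 (others 9.55 to 9.73), and in 10343391, at 9.77 (others 10.38 to 10.84). In 10343391, wild-type replicate 5 was high at 10.21 (others 9.60 to 9.85). Wild-type replicate 7 was low in the brightest members outside the control block, 10608690 at 13.44 (others 13.60 to 13.68) and 10608691 at 12.83 (others 13.28 to 13.48). Knockout replicate 7 was high in 10342110, at 7.74 (others 7.11 to 7.32), and knockout replicate 8 was low in 10344613, at 7.29 (others 7.68 to 8.04).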

How the results depend on the processing

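The counts past the adjusted threshold moved with nearly every setting, and those at an unadjusted p under 0.05 moved less. With all levels kept, the latter ran from 683 to 1014 in the control block (873 in the main fit). In the other group they ran from 613 to 924 (825 in the main fit). The cause was not tested. The matching counts of named probe sets are given for the main fit only, so these ranges show no excess over them. Counts past the adjusted threshold are given in the order control block (2), other unnamed (8), named (2). They were 0, 5 and 1 after quantile normalization, 1, 5 and 1 after median centring, 5, 17 and 4 with dim probe sets left out, 13, 25 and 9 with a robust prior and intensity trend, 13, 27 and 15 with the control block mean as covariate, and 32, 46 and 19 at an adjusted threshold of 0.1. Array weights gave 17 other unnamed and 5 named, and leaving out the control block gave 15 and 4. With wild-type replicate 4 and knockout replicate 2 left out they were 0, 0 and 0, and without knockout replicates 7 and 8 they were 1, 0 and 1. Chosen after seeing the data, a variance prior within each group gave 0 in the control block (683 at an unadjusted p under 0.05), and leaving out the 5 arrays with testis transcripts gave 0, 0 and 0. Without each array in turn the counts ran from 0 to 42, 0 to 62 and 0 to 19, and the Sfrp5 difference from -1.29 to -1.13, past the threshold in 8 of 15 refits.

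At an unadjusted p under 0.05 in limma, the control block kept 767 to 1014 and the other group 717 to 924 without each array in turn; 760 and 665 remained without wild-type replicate 4 and knockout replicate 2, 762 and 677 without knockout replicates 7 and 8, and 774 and 613 without the 5 arrays. With dim probe sets left out the control block had 601 and the other group 490, since fewer were tested. Neither the named share nor the background over all probe sets is given here for these settings. Whether the 2 groups still exceeded them cannot be seen, and no excess is read from these counts. The median difference of the other group was 0.0245 with dim probe sets left out, against -0.00748 with all levels kept. The mean pairwise correlation of the control block was 0.0097 after quantile normalization and 0.0291 after median centring, and that of the other group 0.0138 without the 5 arrays. All 10 members past the threshold kept their direction under each alternative run, at a limma adjusted p of up to 0.331. Runs that changed only the variance model or the probe sets tested leave the difference as it was, so direction there is no check.

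With the replicate number as a block, limma called 0, 0 and 0, with 940 control and 687 other unnamed probe sets at an unadjusted p under 0.05. The background for that fit is likewise not given. The numbers do not pair the mice: 3 of 7 pairs correlated above 0.1 (from -0.12 to 0.25), and 1 of 14 arrays correlated best with its own number.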
